A study of Homo sapiens with 12 samples.

Results

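The genes described here encode the subunits of the 5 complexes of oxidative phosphorylation. They were chosen by gene symbol: nuclear names of the NDUF, SDH, UQCR, COX and ATP5 families, and the mRNAs encoded by mitochondrial DNA, with names of pseudogenes left out. The rule found 95 of the 36433 gene symbols in the deposited table, 82 nuclear and 13 mitochondrial. A filter on low values (at least 1 TPM in at least 3 libraries) kept 91 of them, among 13750 genes tested. The 4 left out were COX6A2, listed at 0 in every library, COX7B2, COX8C and ATP5MGL, whose values did not exceed 0.563 TPM in any library.

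HMEC-1 cells, an immortalised endothelial line from small vessels of human skin, were transfected by lipid carrier with 50 nM of a synthetic RNA, and their RNA was sequenced 48 h later. The groups were cells given a miR-126 mimic, a miR-143 mimic, a miR-150 mimic or a non-targeting scrambled RNA, each of 3 libraries that carry the numbers 2 to 4. A mimic supplies extra copies of a mature microRNA, which lowers transcripts that carry matching sites. All groups are 1 cell line, and nothing in the labels says whether a group's libraries had cultures of their own, so p-values here reflect how far these libraries lie apart, which can be technical. In such bulk RNA, a smaller number of cells of a kind and less RNA in each cannot be told apart. The 3 mimic groups share the same 3 scrambled control libraries.

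The respiratory chain passes electrons from NADH (complex I) and succinate (complex II) through complex III to oxygen at complex IV, and complexes I, III and IV pump protons across the inner mitochondrial membrane. Complex V, the ATP synthase, lets the protons back and makes ATP. Complex II is encoded by nuclear genes alone, while the others also need subunits made inside the mitochondrion from mitochondrial mRNAs. Endothelial cells are known to take much of their ATP from glycolysis, and their mitochondria also serve biosynthesis and signalling.

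The mature sequence of miR-150 was not available here, so no matches to it were searched for. Mature sequences of miR-126 and miR-143 are given because the 3' untranslated regions (3' UTRs) of the subunits were searched for matches to them. They were copied from RefSeq (GRCh38.p14), with the seed, bases 2 to 8, in capitals; the labels do not say which arm each mimic carried, and the 3p arm is shown.
hsa-miR-126-3p: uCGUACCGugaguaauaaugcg
hsa-miR-143-3p: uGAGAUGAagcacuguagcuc
These seeds differ, and each pairs with its own 7-base site, CGGTACG for miR-126-3p and TCATCTC for miR-143-3p.

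All 12 endothelial markers examined had a mean of at least 1 TPM, with PECAM1 at 437 TPM, and their summed level was 1446 to 2224 TPM with the miR-126 mimic, 1926 to 2878 with the miR-143 mimic, 1739 to 2654 with the miR-150 mimic and 1924 to 2823 in the control. Muscle markers summed to at most 0.969 TPM in any library, with 0 of 6 at a mean of 1 TPM and MYH7 at 0. Of the markers of other cells, 6 of 10 for fibroblasts and pericytes (40.2 to 137 TPM summed over all libraries) and 2 of 6 for leukocytes (27.4 to 70.2 TPM) reached that mean. Lymphatic endothelial markers (4 of 4) summed to 83.7 to 84.8, 62.7 to 83.5 and 84.4 to 111 TPM in the groups of miR-126, miR-143 and miR-150 and to 137 to 147 TPM in the control, and epithelial markers (3 of 7) to 526 to 580, 731 to 952 and 902 to 1027 TPM against 449 to 634 TPM. KRT18 made up most of the epithelial sum (mean 673 TPM), PDPN of the lymphatic sum (83.4 TPM) and CD68 of the leukocyte sum (44.1 TPM). KRT8 averaged 37.3 TPM, EPCAM 0.87 TPM and PTPRC 0.81 TPM. The part that the shifts in marker sums had in the results was not tested. TPM are transcript levels scaled to transcript length and to the library's total, so genes can be compared with each other, but the depth of each library is unknown. In replicate 4 of the miR-143 mimic and replicate 4 of the miR-150 mimic, short transcripts were high relative to long ones: across genes, Spearman's rho between level relative to the other libraries and transcript length was -0.40 and -0.55, against -0.01 to 0.29 in the other 10 libraries. The tested nuclear subunits had a median transcript length of 712 bases and all tested genes 2127 bases. Medians and some sums that rest on these libraries are therefore also given without them. Single genes called with all libraries, but not without these, are named.

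Transcripts of the 5 complexes made up 3.79% to 4.69% of all TPM in the 12 libraries. The 13 mitochondrial mRNAs had a median level of 1466 TPM over the 12 libraries, the 78 tested nuclear subunits 206 TPM, and all tested genes 20.9 TPM. Of the 78 nuclear subunits, 74 had a mean between 50 and 1000 TPM, and the means ran from 1.37 TPM for COX6B2 to 768 TPM for ATP5F1B. Mitochondrial mRNAs exceeded the nuclear sum in 11 of 12 libraries, with a ratio of 1.10 to 1.60, and were below it in miR-150 mimic replicate 4 alone, with a ratio of 0.555.

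By level, complex IV led through the mRNAs of its catalytic core, MT-CO2 at a mean of 3736 TPM and MT-CO1 at 3601 TPM over 12 libraries. Complex V followed with MT-ATP6, part of its proton channel, at 2737 TPM and MT-ATP8 at 1738 TPM. In complex I the mitochondrial MT-ND4 and MT-ND4L, membrane subunits of the proton pump, had 1690 and 1466 TPM. In complex III, MT-CYB, which carries its haem b groups, had 1020 TPM and the nuclear UQCRB 465 TPM. Complex II had the lowest levels of its leading members, 201 TPM for the iron-sulphur subunit SDHB and 196 TPM for the membrane anchor SDHC. SDHB ranged between 174 and 226 TPM and SDHC between 169 and 254 TPM over the libraries, so the order of these neighbours does not hold beyond their spread.

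Among nuclear genes the highest was ATP5F1B, the catalytic beta subunit of ATP synthase, at 768 TPM. COX7C (624 TPM) and ATP5MF (616 TPM) came next. NDUFA4 (328 TPM), named as a complex I subunit but known as part of complex IV, and NDUFS5 (323 TPM) led the nuclear genes grouped under complex I. Near the lower end stood UQCRFS1, the Rieske iron-sulphur protein, at 43.6 TPM, and NDUFV3 at 32.2 TPM.

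Where a subunit exists in tissue forms, the ubiquitous one was the more abundant in HMEC-1. COX6A1 averaged 501 TPM while its heart and muscle counterpart COX6A2 was at 0 in all libraries. COX7A2 averaged 573 TPM and COX7A1, the muscle form, 21.1 TPM with a range of 14.4 to 29.2 TPM. COX6B1 averaged 387 TPM and COX6B2, known from testis, 1.37 TPM. COX7B and COX8A had 455 and 343 TPM, against at most 0.213 and 0.229 TPM for COX7B2 and COX8C. The 3 genes for the identical membrane ring subunit of ATP synthase were all present, with ATP5MC2 at 500 TPM, ATP5MC3 at 289 TPM and ATP5MC1 at 154 TPM.

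**Figure D1:**
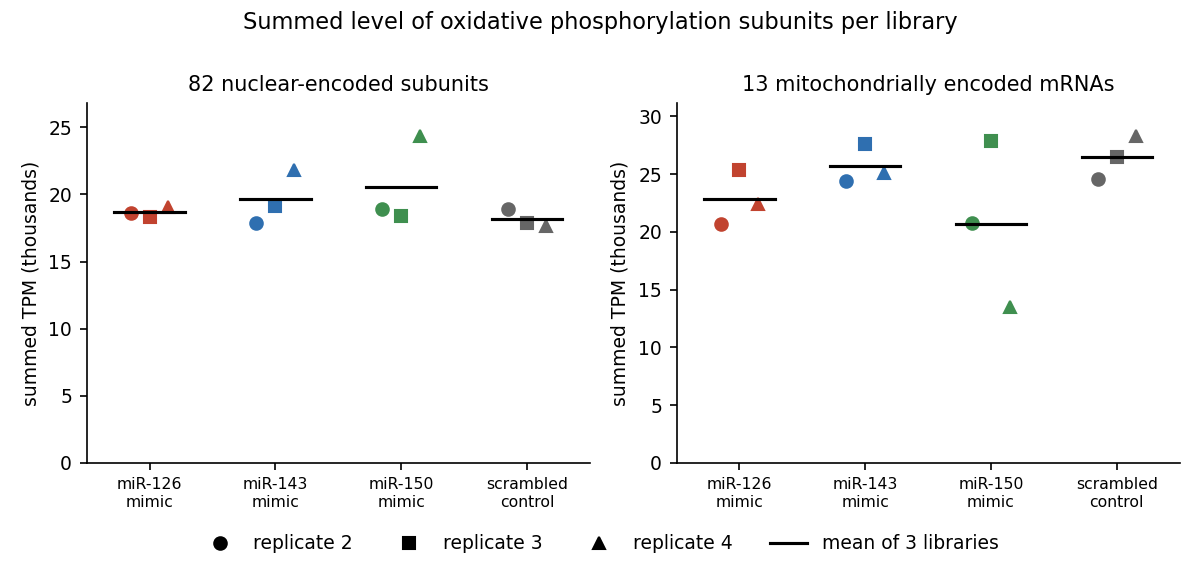
Summed TPM per library (axis in units of 1000) of the 82 nuclear subunits (left) and the 13 mitochondrially encoded mRNAs (right). Points are libraries with a marker for each replicate number, and lines are means of 3 libraries. The highest nuclear sum, 24352 TPM, and the lowest mitochondrial sum, 13513 TPM, are from the same library, miR-150 mimic replicate 4.

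Summed over the 82 nuclear genes, the level was 18629, 18310 and 19071 TPM with the miR-126 mimic, 17910, 19155 and 21827 TPM with the miR-143 mimic, 18922, 18384 and 24352 TPM with the miR-150 mimic, and 18910, 17877 and 17663 TPM in the control. Each mimic group overlapped the control, and replicate 4 of miR-150 and replicate 4 of miR-143 lay above every other library. The means were 18670 ± 382, 19631 ± 2002, 20553 ± 3302 and 18150 ± 667 TPM in the same order of groups (SD over 3 libraries). As a log2 ratio to the control these were 0.04 ± 0.04 for miR-126, 0.11 ± 0.11 for miR-143 and 0.18 ± 0.16 for miR-150. Here ± gives the SD of log2 sums between libraries, pooled over both groups. Leaving out replicate 4 gave 0.03 for miR-143 and 0.04 for miR-150.

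Within the nuclear sum, complexes lay on different sides of the control with the miR-126 mimic. Complex I nuclear subunits summed to 5878, 5646 and 6070 TPM with the miR-126 mimic, against 5579, 5189 and 5212 TPM in the control. Complex II summed to 732, 717 and 734 TPM with the miR-126 mimic, against 626, 655 and 622 TPM in the control, without overlap. Complex IV nuclear subunits summed to 3899, 4024 and 4010 TPM with the miR-126 mimic and 3726, 3691 and 3520 TPM in the control, and complex V to 6059, 6029 and 6190 TPM against 6794, 6399 and 6286 TPM. In these 4 complexes all libraries of the miR-126 mimic lay on one side of the control libraries: above for I, II and IV, below for V. Complex III overlapped, with 2061, 1894 and 2067 TPM against 2184, 1944 and 2024 TPM. The miR-143 mimic lay above the control without overlap in complex I (5744, 5828 and 7120 TPM) and complex II (670, 696 and 695 TPM), and the miR-150 mimic in complex IV (3917, 3834 and 5128 TPM). These sums were given no test, and ATP5MF, described further on, carried 286 TPM of the 401 TPM difference between group means in complex V. In complex I, NDUFB5 averaged 157 TPM with miR-126 against 49.3 TPM in the control, and NDUFA10 110 against 54.8 TPM. The median log2 fold change with miR-126 was 0.10 over complex I nuclear subunits and 0.10 over all tested genes. After each library was centred on its median, 29 of 78 nuclear subunits lay above 0 with miR-126.

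**Figure D2:**
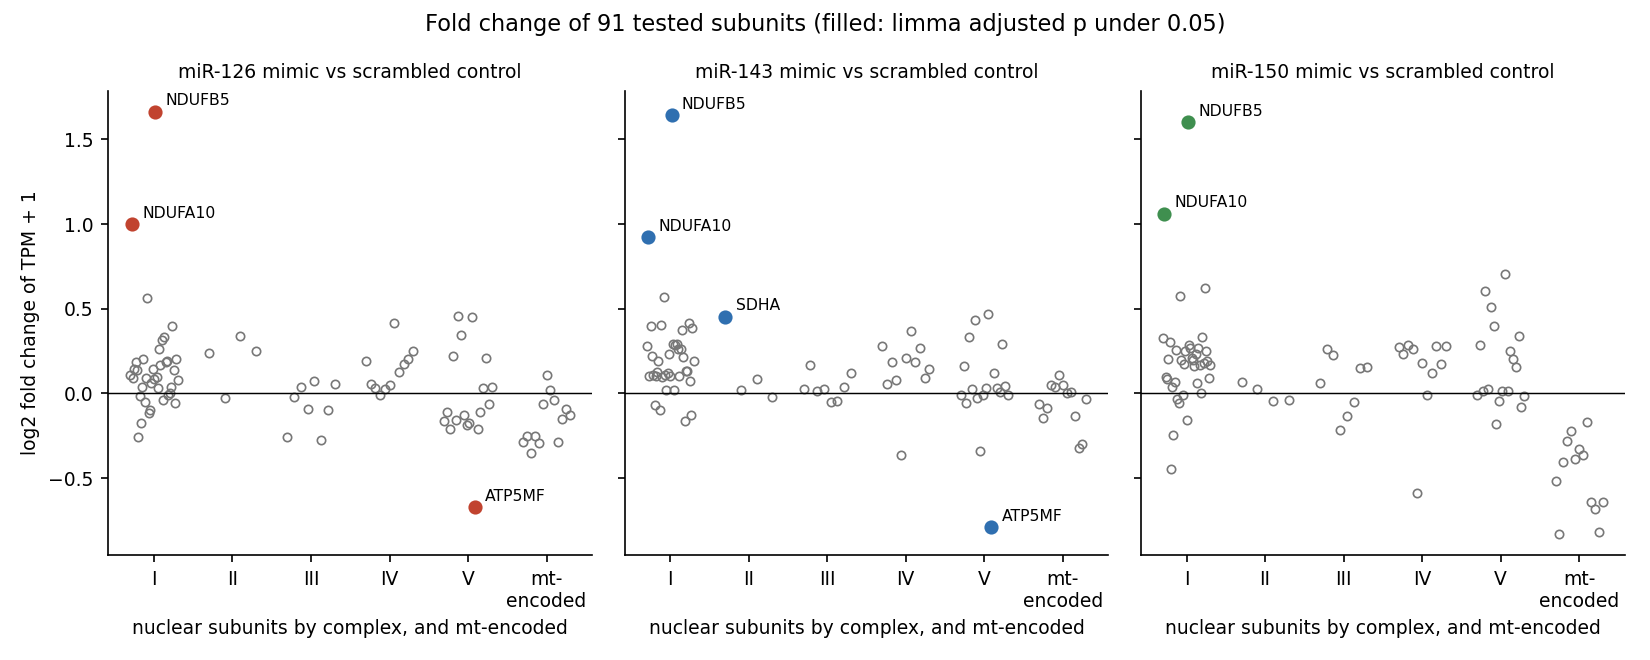
Log2 fold change of TPM + 1 for the 91 tested subunits in each mimic against the scrambled control, grouped by complex for nuclear genes and in a column of their own for mitochondrially encoded (mt) mRNAs. Each point is a gene and filled, named points passed a limma adjusted p of 0.05. NDUFB5 and NDUFA10 stand apart at the top in every panel, ATP5MF at the bottom with miR-126 and miR-143, and most others lie near 0.

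Gene by gene, few subunits passed the test. With the miR-126 mimic 2 of 91 were higher and 1 lower than in the control (limma on log2(TPM + 1), two-sided, Benjamini-Hochberg adjusted p under 0.05 over all tested genes), or 3 in all. Across all tested genes 5.11% were called, 3.37% higher and 1.73% lower. The median log2 fold change was 0.06 over nuclear subunits, -0.15 over mitochondrial mRNAs and 0.10 over all tested genes. Centring each library on its median moved the median of all genes to -0.04 and that of the nuclear subunits to -0.08, and it split the 901 genes then called into 354 higher and 547 lower, against 464 and 238 without it. Quantile normalization gave 0.06 for the nuclear subunits and -0.01 for all genes, with 482 genes called higher and 547 lower, and removal of length trends gave -0.07 and -0.01, with 648 and 829. Without the filter the medians were 0.06 and 0.03. Neither the direction of the nuclear set as a whole nor its place above or below all genes therefore holds across these settings.

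With the miR-143 mimic 3 subunits were higher and 1 lower, where 3.32% of all tested genes were called, 1.84% higher and 1.48% lower. The median log2 fold change was 0.12 over nuclear subunits, -0.03 over mitochondrial mRNAs and -0.04 over all genes, and 63 of 78 nuclear subunits lay above 0. Without replicate 4 of the mimic, the nuclear median was 0.03, the median of all genes 0.02 and the number above 0 was 43. The miR-150 mimic gave 2 subunits higher and 0 lower, where 3.32% of genes were called, 1.08% higher and 2.23% lower. At an unadjusted limma p under 0.05 the miR-150 mimic had 18 of 91 subunits, both directions together, where 17.4% of all tested genes were under it. Its nuclear median was 0.17, its mitochondrial median -0.41 and the median of all genes -0.11, with 60 of 78 nuclear subunits and 0 of 13 mitochondrial mRNAs above 0. Without replicate 4 of the mimic these became 0.02, -0.12 and 0.02, with 42 of 78 and 1 of 13 above 0. Median centring with all libraries gave 0.30, -0.28 and 0.02 and called 245 genes higher and 337 lower, and quantile normalization called 301 and 372. With transcript-length trends removed from each library, the genes called for miR-150 were 445 higher and 446 lower, against 149 and 307 without that step.

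The nuclear subunits were measured more tightly than most genes, so many of them can be bounded. The median SE of the log2 fold change was 0.142 for nuclear subunits, 0.246 for mitochondrial mRNAs and 0.222 for all tested genes. The 95% interval of the fold change lay within 1.5-fold of no change for 58 of 78 nuclear subunits with the miR-126 mimic, 54 with miR-143 and 51 with miR-150. Among all tested genes that share was 29.7%, 30.6% and 29.6%. Mitochondrial mRNAs were bounded in this way for 3, 7 and 1 of 13 genes. The nuclear subunits also had a higher median level, 206 against 20.9 TPM for all tested genes, and the part of level in their smaller SE was not tested. These bounds hold for the main scaling alone. Median centring moved the median log2 fold change of nuclear subunits from 0.06 to -0.08 with miR-126 and from 0.17 to 0.30 with miR-150.

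NDUFB5, an accessory subunit of the membrane arm of complex I (chromosome 3, 179604690 to 179627647, plus strand, GRCh38), showed the largest change of any subunit. Its level was 156, 155 and 161 TPM with the miR-126 mimic, 149, 145 and 171 TPM with the miR-143 mimic, 157, 126 and 174 TPM with the miR-150 mimic, and 46.6, 58.4 and 42.9 TPM in the control. All 9 mimic libraries lay above the 3 controls, with the nearest pair at 126 and 58.4 TPM.
The log2 fold change was 1.66 ± 0.14 for miR-126, 1.64 ± 0.14 for miR-143 and 1.60 ± 0.14 for miR-150 (SE, limma adjusted p = 0.00012, 0.000305 and 0.000293). Between mimics the differences were at most 0.06 on the log2 scale, from a fit whose SE was 0.14. The call stood in each of the 18 fits that left out 1 library, where the adjusted p reached at most 0.00407.

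Both leading transcripts of NDUFB5 carried this difference. NDUFB5-201, the main protein-coding transcript with 55.5% of the gene's TPM, averaged 86.5 ± 11.1 TPM with miR-126, 83.1 ± 11.5 with miR-143 and 87.8 ± 9.75 with miR-150, against 27.7 ± 2.14 TPM in control libraries (SD over 3). NDUFB5-207, a transcript with a retained intron, had 41.5 ± 5.34, 40.3 ± 5.78 and 43.8 ± 16.0 TPM, against 11.5 ± 4.97 TPM. Both were about as far apart between mimic and control groups as the gene's total. MRPL47, a mitochondrial ribosomal protein gene known to lie next to NDUFB5, had log2 fold changes of 0.11, 0.22 and 0.10 in the same comparisons and passed in none.

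NDUFA10, a further accessory subunit of complex I (chromosome 2, 239892450 to 240025402, minus strand), had 109, 110 and 112 TPM with the miR-126 mimic, 92.6, 115 and 106 TPM with the miR-143 mimic, 115, 117 and 113 TPM with the miR-150 mimic, and 57.3, 59.3 and 47.8 TPM in the control. Here too all mimic libraries lay above all control libraries. The log2 fold change was 1.0 ± 0.11 for miR-126, 0.92 ± 0.11 for miR-143 and 1.06 ± 0.11 for miR-150 (SE, limma adjusted p = 0.000739, 0.00173 and 0.000519). It passed in all 18 fits without 1 library. The symbol sums transcripts listed under 2 Ensembl genes, 1 of them an alternative copy of the locus with the same values, and its most abundant transcript, NDUFA10-214, had 33.6 ± 0.501, 30.1 ± 1.39 and 33.2 ± 1.38 TPM in the miR-126, miR-143 and miR-150 groups, against 14.1 ± 1.66 TPM in the control.

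ATP5MF, a subunit of the membrane part of ATP synthase (chromosome 7, 99448475 to 99466331, minus strand), separated the mimics from each other. It had 468, 509 and 464 TPM with the miR-126 mimic, 375, 493 and 468 TPM with the miR-143 mimic, 724, 775 and 823 TPM with the miR-150 mimic, and 789, 791 and 718 TPM in the control. The miR-126 and miR-143 libraries lay below all others, and the miR-150 libraries overlapped the control. ATP5MF fell by 0.67 ± 0.11 with miR-126 and by 0.79 ± 0.11 with miR-143 on the log2 scale (SE, limma adjusted p = 0.00625 and 0.00348), and was 0.01 ± 0.11 apart from the control with miR-150 (adjusted p = 0.968). For miR-150 the 95% interval of the log2 difference ran from -0.23 to 0.26. Tested against the miR-150 mimic directly, ATP5MF was lower by -0.69 ± 0.11 with miR-126 and by -0.80 ± 0.11 with miR-143 (limma adjusted p = 0.00766 and 0.0039). These calls stood in every fit that left out 1 library, but the one for miR-143 against the control did not pass after median centring (0.0604), nor did those against miR-150 when 2 groups were fitted alone (0.0875 and 0.171).

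Each of its 3 leading transcripts shared the pattern. ATP5MF-203 averaged 235 ± 17.0 TPM with miR-126, 210 ± 15 with miR-143 and 354 ± 36.8 with miR-150, against 374 ± 37.9 TPM in control libraries (SD over 3). ATP5MF-205 had 178 ± 17.9, 165 ± 38.4 and 300 ± 29.5 TPM against 282 ± 3.21 TPM, and ATP5MF-202 had 57.0 ± 6.22, 62.6 ± 10.4 and 101 ± 12.6 TPM against 93.0 ± 9.31 TPM. ATP5MF overlaps PTCD1 and the read-through gene ATP5MF-PTCD1 on its own strand and CPSF4 on the other, at mean levels of 4.96, 6.31 and 45.4 TPM, and none of these passed in any comparison with the control.

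**Figure D3:**
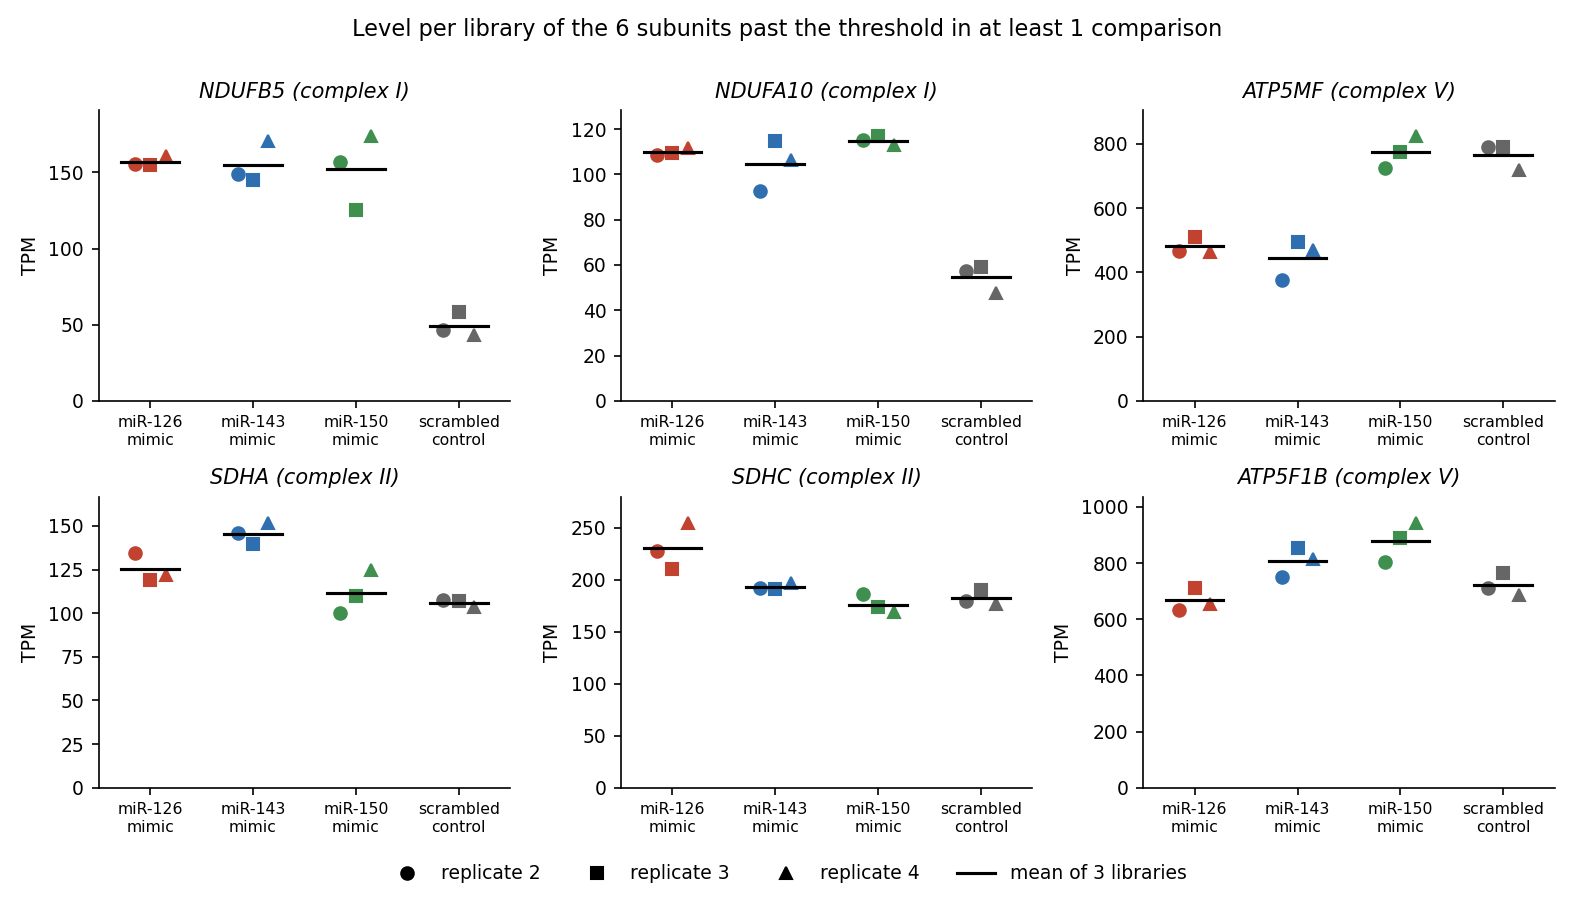
TPM per library of the 6 subunits that passed in at least 1 of the 6 comparisons; points are libraries, markers give the replicate number and lines are means of 3 libraries. For NDUFB5 and NDUFA10 the control stands below all 3 mimics. For ATP5MF the miR-126 and miR-143 mimics stand below the miR-150 mimic and the control.

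The 3 other subunits that passed did so by smaller margins. SDHA, the flavoprotein of complex II that oxidises succinate, had 146, 139 and 151 TPM with the miR-143 mimic, against 107, 107 and 103 TPM in the control, without overlap. It rose by 0.45 ± 0.10 on the log2 scale (SE, limma adjusted p = 0.0352), and passed in none of the 6 fits without 1 library, where the adjusted p reached 0.152. Removing the length trend gave an adjusted p of 0.0827. Pseudogenes named after SDHA had 44.4% of its TPM, so reads may be split between near-identical copies and the value is uncertain.

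SDHC had 228, 211 and 254 TPM with the miR-126 mimic and 186, 174 and 169 TPM with the miR-150 mimic, without overlap, a difference of 0.39 ± 0.09 on the log2 scale (SE, limma adjusted p = 0.0432). ATP5F1B had 634, 713 and 655 TPM with the miR-126 mimic and 805, 890 and 941 TPM with the miR-150 mimic, also without overlap, a difference of -0.40 ± 0.09 (limma adjusted p = 0.0419). SDHC missed the threshold in 5 of 6 fits without 1 library and ATP5F1B in 6 of 6. Both also missed it without the 2 libraries that favour short transcripts (limma adjusted p = 0.0636 and 0.073). By median centring and by a fit without the mean-variance trend, ATP5MF remained as the 1 subunit called between these mimics.

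In all, between mimics, 3 subunits passed for miR-126 against miR-150 (1 higher, 2 lower), where 3.91% of all tested genes were called, 3.11% higher and 0.8% lower. For miR-143 against miR-150 it was ATP5MF alone, where 2.19% of genes were called, 1.59% higher and 0.604% lower. The comparison of miR-126 with miR-143 called 0 subunits by limma, where 2.52% of all genes were called, 1.46% higher and 1.05% lower. At an unadjusted limma p under 0.05 it held 8 of 91 subunits and 16% of all genes. Nuclear medians were -0.09, -0.09 and -0.01 for miR-126 against miR-143, miR-126 against miR-150 and miR-143 against miR-150, against 0.15, 0.22 and 0.07 over all genes. Without the 2 libraries that favour short transcripts these nuclear medians were 0.01, 0.04 and 0.02, against 0.09, 0.09 and 0.01 over all genes. Median centring reversed the sign of the all-gene medians to -0.04, -0.04 and -0.01, and gave -0.27, -0.35 and -0.08 for the nuclear subunits, with 156 higher and 282 lower, 224 and 329, and 198 and 126 of all genes called. Quantile normalization called 210 higher and 282 lower, 283 and 330, and 238 and 167, and removal of length trends 322 and 507, 364 and 580, and 352 and 259.

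Same-numbered libraries deviated together in the comparison of miR-126 with the control and in all comparisons between mimics, so fits blocked on that number are given for these. For miR-126 against the control the block called 8 subunits, 7 higher and 1 lower, where it called 17% of all tested genes, 11.8% higher and 5.11% lower. The 5 added were NDUFB1, with a log2 fold change of 0.56, ATP5IF1 (0.46), the inhibitor of ATP synthase, ATP5ME (0.45), a membrane subunit of that enzyme, ATP5MC1 (0.35) and SDHC (0.34), with limma adjusted p between 0.0157 and 0.0343 under the block and between 0.0598 and 0.281 without it. NDUFB1, a small accessory subunit of complex I, had 247, 226 and 251 TPM with the miR-126 mimic, 216, 226 and 289 TPM with the miR-143 mimic, 211, 212 and 320 TPM with the miR-150 mimic and 168, 162 and 158 TPM in the control, so all mimic libraries lay above all control libraries. For miR-126 against miR-143 the block called 3 subunits, ATP5MC1 higher and ATP5F1B and NDUFA8 lower, where it called 11% of all genes, 7.57% higher and 3.45% lower. For miR-126 against miR-150 it called 5, SDHC and SDHD higher and ATP5MF, ATP5F1B and ATP5MG lower (18.9% of all genes, 15.8% higher and 3.06% lower). For miR-143 against miR-150 it called 5, SDHA, NDUFA8 and NDUFA12 higher and ATP5MF and ATP5MC1 lower (9.75%, 7.06% higher and 2.68% lower).

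Non-overlap was more frequent than a call. All libraries of the miR-126 mimic lay outside the range of the control for 30 of 91 subunits, 19 above and 11 below, where 34.1% of all tested genes did so, 23.1% above and 11.1% below. For miR-143 the count was 19 above and 1 below (25.3% of all genes, 11.4% above and 13.9% below), and for miR-150 it was 19 above and 3 below (21.5%, 6.87% above and 14.6% below). Of those above, 9, 12 and 10 were among the 37 nuclear subunits of complex I, for the 3 mimics in the same order. Between mimics, 5 subunits lay above and 12 below for miR-126 against miR-143 (25.4% of all genes, 19.2% above and 6.17% below), 3 above and 12 below for miR-126 against miR-150 (25.9%, 21.8% above and 4.08% below), and 4 above and 5 below for miR-143 against miR-150 (15.1%, 10.3% above and 4.79% below).

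The mitochondrial mRNAs come from 1 long transcript of each strand and are cut apart afterwards, so they often move together. MT-ATP8 and MT-ATP6 overlap in the genome, as do MT-ND4L and MT-ND4, so the division of reads within these pairs is uncertain. Pseudogenes named after MT-ATP6 carried 19.4% of its level, nearly all of it under MTATP6P1 (532 TPM over the 12 libraries), so the level of MT-ATP6 is uncertain for that reason as well. The sum over the 13 mRNAs was 20693, 25395 and 22435 TPM with the miR-126 mimic, 24366, 27570 and 25064 TPM with miR-143, 20727, 27896 and 13513 TPM with miR-150, and 24592, 26480 and 28296 TPM in the control. The groups overlapped in every case. Log2 ratios to the control were -0.21 ± 0.13 for miR-126, -0.04 ± 0.10 for miR-143 and -0.35 ± 0.38 for miR-150 (SD of log2 sums between libraries, pooled over both groups). Without replicate 4 the ratio for miR-150 was -0.12.

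None of the 13 passed in any of the 6 comparisons by limma, with 1, 0 and 4 at an unadjusted p under 0.05 against the control for miR-126, miR-143 and miR-150, and 0, 1 and 1 between mimics. Of all tested genes 19.4%, 16.8% and 17.4% were under that p against the control, and 16%, 21.6% and 14.2% for miR-126 against miR-143, miR-126 against miR-150 and miR-143 against miR-150. MT-CO1, the subunit that reduces oxygen, had 2921, 3508 and 3277 TPM with the miR-126 mimic, 3535, 4449 and 3689 TPM with miR-143, 3257, 3784 and 2426 TPM with miR-150, and 4014, 3933 and 4415 TPM in the control. Both the miR-126 and the miR-150 libraries lay below all controls. The log2 fold changes were -0.35 ± 0.15 and -0.41 ± 0.15 (SE, limma adjusted p = 0.239 and 0.196), and for miR-126 the adjusted p was 0.0464 when only these groups were fitted and 0.0429 with the length trend removed. MT-ND6, the only one of the 13 made from the other strand, had 648, 831 and 431 TPM with the miR-150 mimic, against 969, 894 and 1015 TPM in the control, also without overlap, and a log2 fold change of -0.64 ± 0.20 (limma adjusted p = 0.106). Without replicate 3 of the miR-150 mimic, MT-ND6 and MT-CO2, another core subunit of complex IV, passed as lower (limma adjusted p = 0.0223 and 0.0437).

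**Figure D4:**
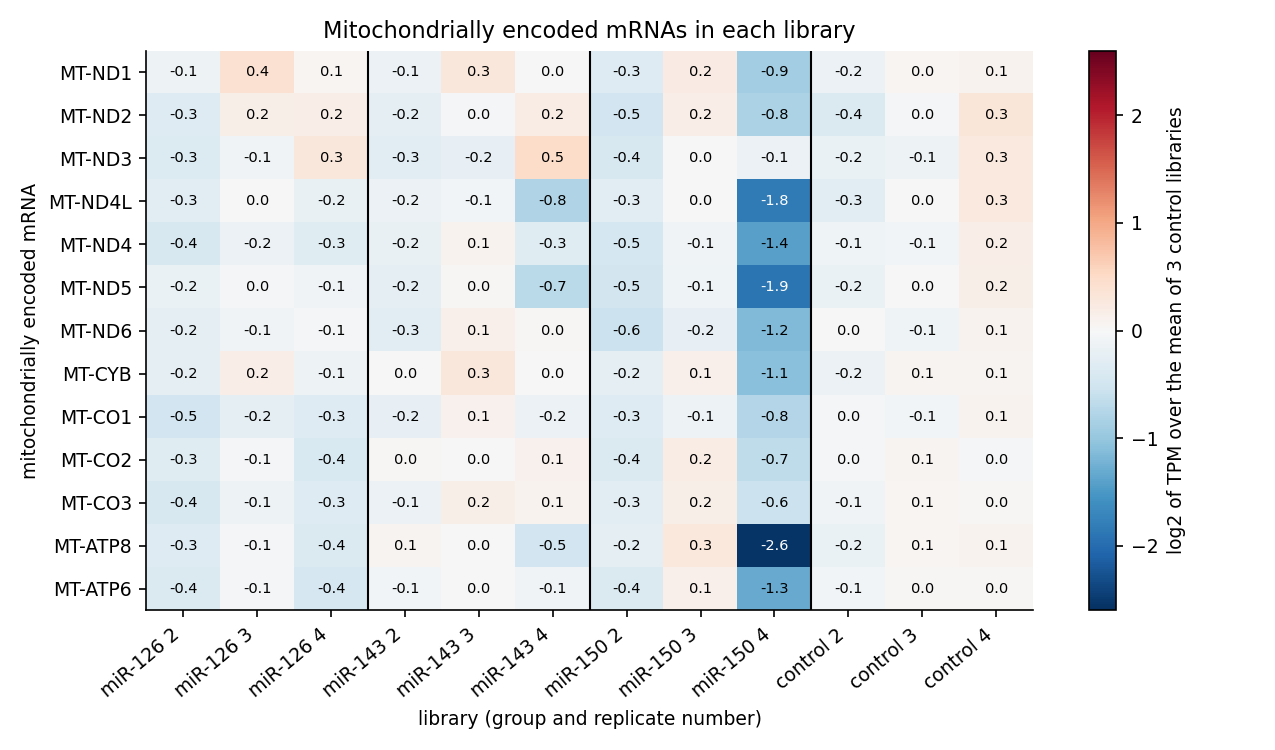
Each cell gives the log2 of a mitochondrially encoded mRNA's TPM in 1 library over its mean in the 3 control libraries; columns are the 12 libraries and rows the 13 mRNAs. Most cells lie near 0, and the column of miR-150 mimic replicate 4 is below 0 throughout, from -0.1 for MT-ND3 to -2.6 for MT-ATP8.

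The low mitochondrial sum of miR-150 mimic replicate 4 was uneven. MT-ATP8 had 1692, 2405 and 338 TPM in replicates 2, 3 and 4 of that group, so replicate 4 stood at 16.5% of the mean of the others. MT-ND4L stood at 30.8%, MT-ND5 at 32.7% and MT-ATP6 at 43.2%, while MT-CO1, MT-CO3 and MT-ND3 stood at 68.9%, 70.4% and 103%. In all, 12 of the 13 had their lowest value of the 12 libraries there.
In the same library 53 of 78 nuclear subunits, or 67.9%, had their highest value, where 7.13% of all tested genes did. Relative to the other libraries of its group, its median log2 difference was 0.41 over nuclear subunits, -0.85 over mitochondrial mRNAs and -0.36 over all tested genes. Ribosomal protein transcripts, which are also short, took 24.0% of its TPM and 13.5% to 17.9% in the other 11 libraries. Across the 78 nuclear subunits, Spearman's rho between the log2 difference of replicate 4 and transcript length was -0.44 in miR-150 and -0.44 in miR-143, values that share these libraries' length bias. The part of length or RNA quality in the mitochondrial values was not tested.

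**Figure D5:**
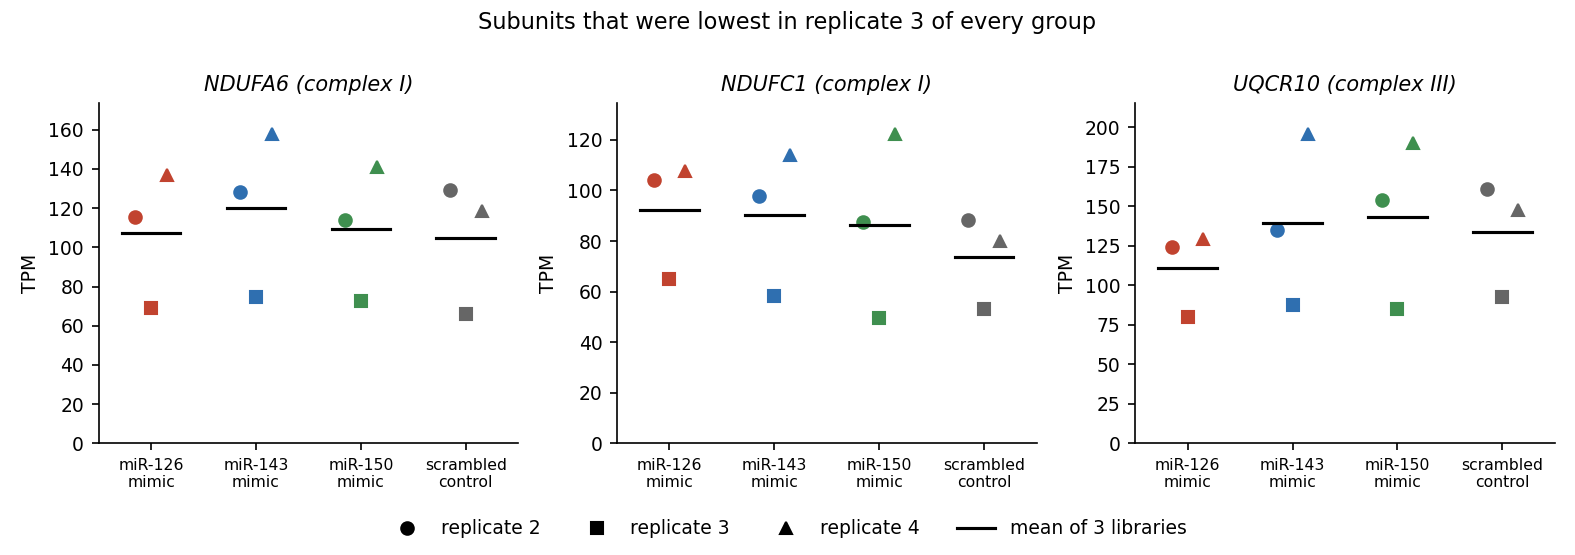
TPM per library of NDUFA6, NDUFC1 and UQCR10; points are libraries, markers give the replicate number and lines are means of 3 libraries. Replicate 3, the square, is the lowest point in each of the 4 groups, including the control.

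Some subunits followed the replicate number instead of the mimic. NDUFA6, a complex I subunit of the LYR family, had 69.2, 74.8, 72.5 and 66.0 TPM in replicate 3 of the miR-126, miR-143, miR-150 and control groups, and between 114 and 158 TPM in the other 8 libraries. UQCR10, a small subunit of complex III, had 80.2, 87.8, 85.1 and 92.6 TPM in those libraries and 124 to 196 TPM in the others. NDUFC1 had 65.0, 58.4, 49.5 and 53.0 TPM, against 80.2 to 122 TPM. On average replicate 3 was lower than the other libraries of its group by -0.87, -0.82 and -0.81 on the log2 scale for NDUFA6, UQCR10 and NDUFC1. In 13 of 91 subunits (14.3%) replicate 3 was the lowest of its group in all 4 groups, and in 3 (3.3%) the highest, where 9.43% and 18.9% of all tested genes were. The labels do not say what the number marks. NDUFA6 is summed over 5 Ensembl genes listed under its symbol and is uncertain for that reason.

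Matches to the seeds were rare in these genes, whose longest 3' UTR had a median of 450 bases, against 1347 bases over 12494 tested genes. The site CGGTACG, on the sense strand, was in 0 of 78 nuclear subunits and in 0.296% of all genes. TCATCTC was in 4 of 78 (5.13%) and in 14.4% of all genes. The 4 were NDUFA10, NDUFA9, NDUFS1 and SDHC, whose log2 fold changes with the miR-143 mimic were 0.92, 0.10, 0.26 and 0.09, so NDUFA10 was higher than in the control and the other 3 did not pass. The match of SDHC lies in SDHC-202. Its transcripts SDHC-201, SDHC-203 and SDHC-206, with 46.7%, 36.5% and 11.3% of its TPM, hold no TCATCTC. The 7-mer GGTTGTG, which earlier results of these data singled out, was in NDUFA10, NDUFB4, NDUFC2, NDUFS1 and UQCR11, or 6.41%, and in 10.2% of all genes. Of these 5 only NDUFA10 passed in a comparison with the control, and the leading transcripts of NDUFB5 and ATP5MF held none of the 3 sites. Only each gene's longest annotated 3' UTR was searched, whether or not its transcript was expressed. For NDUFA9, NDUFS1, NDUFB4, NDUFC2 and UQCR11 it had 7209, 9368, 1031, 1683 and 1072 bases. Their transcripts averaged 793, 3071, 667, 596 and 546 bases, weighted by TPM. These matches need not lie in the transcripts that made up most of their TPM.

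The GGTTGTG nearest the start of the 3' UTR of NDUFA10 is shown because this gene rose with every mimic, and its TCATCTC because the gene rose with the miR-143 mimic too. Its most abundant transcript, NDUFA10-214, holds GGTTGTG once in its 3' UTR and no TCATCTC. The other 3 lines hold TCATCTC and come from partner genes, described next, that fell with the miR-143 mimic. They were picked by that direction. COX17, which rose with this mimic, holds TCATCTC too, and MRPS27, which fell, holds none in its leading transcripts. SUCLA2, not called with miR-143 against the control, holds it in its longest 3' UTR, though not in its leading transcripts. All lines are read 5' to 3' on the strand of the gene from GENCODE release 29 transcripts on GRCh38, with the 7-mer in capitals.
NDUFA10, chr2:239960777-239960805, minus strand: tgtgtcattcaGGTTGTGcacattgtttt
NDUFA10, chr2:239960292-239960320, minus strand: gatttctttatTCATCTCtgttgaagcct
COX7A2L, chr2:42350682-42350710, minus strand: ggttatttgccTCATCTCctatctttagt
COA1, chr7:43639521-43639549, minus strand: ccatccttcccTCATCTCtaccatatggc
TTC19, chr17:16028262-16028290, plus strand: acacaactgagTCATCTCaagtactcttt
A match is a description of these letters and no evidence of a site in use.

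Other parts of the respiratory system were followed in lists of partner genes. Their calls, and counts of 0 calls, come from the fit without the replicate block and hold for that fit alone. For miR-126 against the control it called 5.11% of all tested genes, and the block 17%. Of the 5 tested subunits and carriers that the symbol rule does not cover, COX7A2L, which joins complexes III and IV into supercomplexes, had 102, 124 and 115 TPM with the miR-143 mimic, against 164, 168 and 154 TPM in the control, without overlap. It fell by 0.51 ± 0.10 on the log2 scale (SE, limma adjusted p = 0.0171), and was also lower than with the miR-150 mimic (-0.59, adjusted p = 0.0102), while miR-126 was higher than miR-143 (0.53, adjusted p = 0.0179). Against the control the call was lost in 5 of 6 fits without 1 library, and against miR-150 in 0 of 6. COX4I1, the ubiquitous nuclear subunit of complex IV, had 626, 564 and 663 TPM with miR-126, 621, 661 and 858 TPM with miR-143, 658, 601 and 1001 TPM with miR-150, and 479, 443 and 416 TPM in the control. Its libraries did not overlap the control, and its log2 fold changes of 0.47, 0.66 and 0.72 missed the threshold (limma adjusted p = 0.174, 0.0756 and 0.055). Cytochrome c itself (CYCS) had log2 fold changes of 0.06, 0.00 and -0.00 and CYC1, the cytochrome subunit of complex III, 0.06, 0.10 and -0.07.

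Assembly factors, which build the complexes without staying in them, showed single changes. Of 17 factors for complex I, 1 fell with each mimic and 0 rose, where 1.73%, 1.48% and 2.23% of all tested genes were called lower with miR-126, miR-143 and miR-150. NDUFAF1 fell with miR-126, with 14.6, 13.1 and 12.3 TPM against 20.4, 26.4 and 22.3 TPM in the control (-0.74 ± 0.14, limma adjusted p = 0.0139). COA1, which helps to build complexes I and IV, fell with miR-143, with 33.3, 29.9 and 29.7 TPM against 57.1, 47.2 and 53.7 TPM (-0.74 ± 0.13, adjusted p = 0.0119). NUBPL, an iron-sulphur carrier for complex I, fell with miR-150, with 4.37, 5.01 and 3.10 TPM against 8.97, 8.26 and 9.33 TPM (-0.95 ± 0.23, adjusted p = 0.0446). In all 3 genes the groups did not overlap. The calls were lost in 4, 3 and 5 of 6 fits without 1 library.
Of 10 factors for complexes II and III, 1 fell with miR-143, where 1.48% of all genes did, and 0 passed with the other mimics. It was TTC19, which keeps complex III working, with a log2 fold change of -0.70 ± 0.15 (limma adjusted p = 0.0309, lost in 6 of 6 fits without 1 library). Of 22 for complex IV, the copper chaperone COX17 rose with miR-143, where 1.84% of all genes did, by 0.66 ± 0.15 (adjusted p = 0.0387, lost in 6 of 6) and its main transcript holds TCATCTC as well, while 0 passed with miR-126 or miR-150. Median log2 fold changes of these 3 lists lay between -0.04 and 0.20.

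The mitochondrial ribosome translates the 13 mRNAs. In its small subunit 2 of 29 genes rose with miR-126, 3 rose and 1 fell with miR-143, and 2 rose and 1 fell with miR-150; in its large subunit 1 of 49 rose with each mimic and 1 fell with miR-150. Across all tested genes 3.37% were called higher and 1.73% lower with miR-126, 1.84% and 1.48% with miR-143, and 1.08% and 2.23% with miR-150. MRPS35 had 51.9, 56.7 and 48.6 TPM with miR-126, 58.6, 65.8 and 57.6 TPM with miR-143 and 59.4, 73.3 and 50.0 TPM with miR-150, against 25.0, 24.1 and 22.1 TPM in the control, without overlap (log2 fold changes 1.11, 1.32 and 1.31, limma adjusted p = 0.00167, 0.000751 and 0.00056). MRPS24 rose with each mimic too, by 1.09, 1.26 and 1.24 (adjusted p = 0.0072, 0.00437 and 0.00442), and so did MRPL18, by 0.52, 0.55 and 0.47 (adjusted p = 0.0127, 0.0122 and 0.0255, lost in 4, 3 and 4 of 6 fits without 1 library). MRPL36, of the large subunit, had 45.6, 45.0 and 47.6 TPM with the miR-150 mimic, against 88.9, 87.5 and 88.2 TPM in the control, and fell by 0.92 ± 0.10 (adjusted p = 0.000519). It was lower with miR-150 than with miR-126 and miR-143 as well, which were higher by 0.78 and 0.81 (adjusted p = 0.00197 and 0.00173). MRPS25 fell by 0.87 ± 0.14 with miR-150 (adjusted p = 0.00694). With miR-143, MRPS27 fell by 0.67 and MRPS31 rose by 0.58 (adjusted p = 0.0352 and 0.045), and both calls were lost in 6 of 6 fits without 1 library. Omitting the 2 libraries that favour short transcripts also lost MRPS31 (limma adjusted p = 0.0537).

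Of 17 enzymes of the tricarboxylic acid cycle and its entry, which feeds complexes I and II, 1 rose and 1 fell with miR-126, 2 rose with miR-143 and 1 rose with miR-150, where 5.11%, 3.32% and 3.32% of all tested genes were called in either direction. MDH2, the malate dehydrogenase, had 164, 192 and 165 TPM with miR-126, 164, 173 and 159 TPM with miR-143 and 147, 177 and 166 TPM with miR-150, against 108, 132 and 101 TPM in the control, without overlap. Its log2 fold changes were 0.61, 0.54 and 0.52 (limma adjusted p = 0.0152, 0.0341 and 0.0399), and the calls were lost in 5, 5 and 4 of 6 fits without 1 library. Both other calls concern succinyl-CoA synthase, where SUCLA2 fell by 0.53 with miR-126 (adjusted p = 0.0416) and SUCLG1 rose by 0.59 with miR-143 (adjusted p = 0.0334), lost in 6 and 4 of 6 fits without 1 library. Omitting the 2 libraries that favour short transcripts lost the calls for SUCLG1 and for MDH2 with miR-150 (limma adjusted p = 0.0572 and 0.071). Of 17 tested genes of mitochondrial import, TIMM17B of the inner membrane channel fell by 0.99 ± 0.15 with miR-126 (limma adjusted p = 0.00376), where 1.73% of all genes were called lower. With miR-143 and with miR-150 0 passed, where 3.32% of all genes were called. In the lists for mitochondrial transcription and mRNA stability (16 tested genes), mitochondrial DNA replication (8), nuclear regulators of respiratory genes (9) and assembly of complex V (4), 0 genes passed against the control by limma. At an unadjusted p under 0.05 these lists held 3, 1 and 0 genes of transcription for miR-126, miR-143 and miR-150, 0, 1 and 3 of replication, 1, 1 and 1 regulators and 1, 1 and 0 genes of complex V assembly. Of all tested genes 19.4%, 16.8% and 17.4% were under that limma p with these mimics.

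The partner lists held further calls between mimics, beside those given above for COX7A2L and MRPL36. MGME1, a nuclease of mitochondrial DNA upkeep, was higher with miR-126 and with miR-143 than with miR-150, by 1.05 and 1.06 (limma adjusted p = 0.00849 and 0.00929). Among assembly factors, NDUFAF1 was lower with miR-126 than with miR-143 and with miR-150 (-0.80 and -0.83, limma adjusted p = 0.015 and 0.0107). COA1 was lower with miR-143 than with either other mimic, by 0.63 for miR-126 over miR-143 and -0.58 for miR-143 over miR-150 (adjusted p = 0.032 and 0.0485). TTC19 was lower with miR-143 than with miR-150 (-0.82, adjusted p = 0.0176), UQCC1, an assembly factor of complex III, higher with miR-126 than with miR-143 (0.70, adjusted p = 0.0298), and ATPAF1, which helps to assemble ATP synthase, lower with miR-126 than with miR-150 (-0.76, adjusted p = 0.0121).

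In the mitochondrial ribosome, MRPS25 was higher with miR-126 and with miR-143 than with miR-150 (1.02 and 0.69, limma adjusted p = 0.00363 and 0.028), and so was MRPL10 (0.51 and 0.55, adjusted p = 0.0235 and 0.0207). MRPL57 was higher with miR-126 than with miR-143 (0.71, adjusted p = 0.0283) and MRPL24 lower with miR-126 than with miR-150 (-0.52, adjusted p = 0.0474). Of the enzymes, SUCLA2 was lower with miR-126 than with miR-143 and with miR-150 (-0.69 and -0.59, adjusted p = 0.0232 and 0.0353). IDH3G, a subunit of isocitrate dehydrogenase, was lower with miR-126 than with miR-143 (-0.55, adjusted p = 0.0473), and SUCLG2, of succinyl-CoA synthase, higher with miR-126 than with miR-150 (0.65, adjusted p = 0.041). TIMM17B was lower with miR-126 than with miR-150 (-0.89, adjusted p = 0.00925). Of these calls between mimics from MGME1 on, those for MGME1 with miR-143 against miR-150 and for MRPS25 with miR-126 against miR-150 stood in all 6 fits without 1 library. The others were lost in 1 to 6 of 6, with all 6 for UQCC1, IDH3G and MRPL24. Without the 2 libraries that favour short transcripts, MGME1 was not called for miR-143 against miR-150 (limma adjusted p = 0.0577). The same held for MRPL10 and MRPS25 in that comparison, both COA1 calls between mimics, IDH3G, SUCLG2 and MRPL24 (limma adjusted p 0.0504 to 0.137).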

How the data were processed

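The authors made the deposited TPM values with kallisto, a pseudoaligner that quantifies transcripts, per the submitters' processing notes; these also name FastQC, sleuth and GRCh38 (hg38), while versions were not given in the sources used here. Whether RNA was selected by poly(A) is not given either. Depth is unknown, and precision rests on the spread between libraries. TPM of 187626 transcripts in 12 columns were summed per symbol, leaving out 171 without one. The 13750 symbols that reached 1 TPM in 3 or more libraries were fitted as log2(TPM + 1) by group with limma 3.58.1 (R 4.3.3, mean-variance trend, two-sided, Benjamini-Hochberg per comparison, threshold 0.05); this scale understates changes of low genes. The fit was tested on simulated data with independent libraries. These held neither the correlation by replicate number nor the length bias seen here, so that test cannot speak to either. Members, lists and tests were chosen with earlier results of these data known. Named genes are the members that passed, the mitochondrial mRNAs, the highest 2 members per complex, paralogue pairs, members under the filter, and up to 5 passing genes per list and comparison. Summed levels got no test. The symbol rule's exclusion of names ending in P and digits was not applied to MT-ATP6 and MT-ATP8. Mitochondrial rRNAs were not analysed here.

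Replicate numbers 2 to 4 recur in every group. Deviations of same-numbered libraries from their group means had correlations, for numbers 2, 3 and 4, of 0.29, 0.63 and 0.40 between miR-126 and the control. Those between miR-126 and miR-143 were 0.32, 0.66 and 0.37. They were 0.29, 0.55 and 0.28 between miR-126 and miR-150, while miR-143 and miR-150 gave 0.59, 0.63 and 0.74. All exceeded 0.1, so the numbers were taken as pairing there. Number 4 of miR-143 and of miR-150 are the 2 libraries that favour short transcripts. The part of that shared bias in their correlation of 0.74 was not tested. The alternatives were other pseudocounts, filters and scalings, fits of 2 groups, the replicate block, and leaving out libraries.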

Additional observations from a re-analysis of the deposited data

How the results depend on the processing

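Counts of genes called for miR-126, miR-143 and miR-150 against the control, then miR-126 against miR-143, miR-126 against miR-150 and miR-143 against miR-150, were 702, 457, 456, 346, 537 and 301. Fitting 2 groups alone gave 1673, 266, 57, 187, 19 and 4; the replicate block gave 2331, 1775, 1694, 1515, 2599 and 1340; removing length trends gave 1477, 1046, 891, 829, 944 and 611. Omitting replicate 4 of miR-143 and of miR-150 gave 1835 and 707 for miR-126 and miR-143 against the control and 578 between them, and quantile normalization gave 764 for miR-143 against the control. Leaving out each library gave 214 to 472, 139 to 339, 125 to 553, 77 to 183, 117 to 717 and 127 to 353.

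For the subunits, with 3, 4, 2, 0, 3 and 1 called, 2 groups alone gave 11 for miR-126 over the control and 0 when either other mimic was set against miR-150, and the block 8, 10, 9, 3, 5 and 5. Length-trend removal gave 5 for miR-126 over the control and 1 over miR-143, omission of both replicates 4 gave 10 for miR-126 against the control, median centring 2 for miR-143 over the control and 1 when miR-126 was set against miR-150, quantile normalization 4 for miR-150 against the control, and a fit without the mean-variance trend 1 for miR-126 against miR-150. Leaving out each library gave 3 to 3, 3 to 3, 2 to 7, 0 to 0, 1 to 2 and 1 to 4, with the 7 and the 4 reached without miR-150 mimic replicate 3. The causes were not tested. NDUFB5 and NDUFA10 passed against the control in all these fits, and no called subunit changed direction. Values that passed no test did change sign. Omitting both replicates 4 turned the log2 ratio of mitochondrial sums for miR-126 over miR-150 to -0.09 (0.14 with all libraries), and that of nuclear sums for miR-126 over miR-143 to 0.01 (-0.07). The nuclear ratio for miR-126 over miR-150 became 0.0013 (-0.14). MT-ATP8 with miR-150 over the control became 0.03 (-0.83). Without miR-150 replicate 4 the nuclear ratio for miR-143 over miR-150 was 0.07 (-0.07), and without control replicate 4 the mitochondrial ratio for miR-143 over the control was 0.01 (-0.04).

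Same-numbered libraries of miR-143 and the control correlated by 0.04, 0.65 and 0.17, and of miR-150 and the control by 0.07, 0.60 and 0.07. Replicate 3 thus deviated together here too, but not all values exceeded 0.1, so the numbers were not taken as pairing. The block counts for these 2 comparisons are therefore given here alone (12.9% and 12.3% of all genes). The log2 ratios of summed levels moved by less than the spread between libraries. That spread was taken over all libraries, including those left out, such as miR-150 mimic replicate 4. It therefore cannot show that the ratios are stable. With 3 libraries a group, mitochondrial mRNAs whose 95% interval lay within 1.5-fold of no change numbered 3, 7 and 1 of 13 for miR-126, miR-143 and miR-150, so larger changes of the others are not excluded by these data.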
